A study of Homo sapiens with 4 samples.

Results

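The region described here is the 1 Mb window of chromosome 11 from 65000000 to 66000000 (build hg19) that holds the long noncoding RNA genes NEAT1 and MALAT1. Its members are the PPARG peaks whose midpoint lies in that window, 11 of the 3644 peaks in the series. The list of NCI-H2347 gave 9 of its 2225 peaks and the list of NCI-H1993 gave 2 of its 1419. The window was chosen by its number of NCI-H2347 peaks, so that number is given as a description and was not tested.

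The peaks come from ChIP-seq of PPARG in NCI-H2347 and NCI-H1993, 2 human lines from lung adenocarcinoma, grown in RPMI-1640 medium with 5% FBS. Both lines carried a BAC transgene for PPARG with an EGFP-containing LAP tag, and chromatin was precipitated with a goat antibody to EGFP, so the peaks report the tagged protein. There was 1 ChIP library per line, and the input libraries of the 4-sample series were not analysed here. The labels give treatment as not applicable, although both deposited lists carry the unexplained abbreviation PIO in their names. The labels do not say what promoter drove the transgene or whether each line is 1 clone or a pool. A peak list holds no expression values, so the identity of the lines was not checked against marker genes.

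PPARG is a nuclear receptor that binds DNA together with RXR, typically at direct repeats of a hexamer half-site, and switches on genes of lipid storage and fatty acid metabolism when a ligand is bound. NEAT1 is the RNA scaffold of paraspeckles, nuclear bodies that retain RNAs and RNA-binding proteins. MALAT1 is an abundant RNA of nuclear speckles, where splicing factors collect, and takes its name from its discovery as a transcript linked to metastasis of lung adenocarcinoma. The genes are neighbours and both are transcribed toward higher coordinates. In the RefSeq gene order of GRCh38, MIR612, FAUP4, ENEMAL and LINC02736 are listed between their starts, and no protein-coding gene is. Intervals of both genes on hg19 were available in whole kb, 65190 to 65214 kb for NEAT1 and 65265 to 65274 kb for MALAT1. How they were rounded is not stated, so an end is known to about 0.5 kb at best and may be off by up to a whole kb. The sequence of the peaks on hg19 was not used here, and motifs in them were not searched.

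In NCI-H2347, PPARG peaks stood before and over the start of NEAT1 and on either side of MALAT1. The 5 peaks of this stretch lay between 65185930 and 65275698, over 89.8 kb, and held the 3 highest scores of the window. NCI-H1993 had 0 peaks in the same stretch, which means that none passed the authors' threshold there. Weaker signal is not part of a peak list. The stretch was bounded by NCI-H2347 peaks, and of all 2225 peaks in that list only 21.7% overlapped an NCI-H1993 peak. No difference between the lines is read from the count of 0. The remaining NCI-H2347 peaks were scattered, with 1 peak before NEAT1 and 3 far beyond MALAT1, and the single site present in both lists was the one farthest from the RNA genes.

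**Figure D1:**
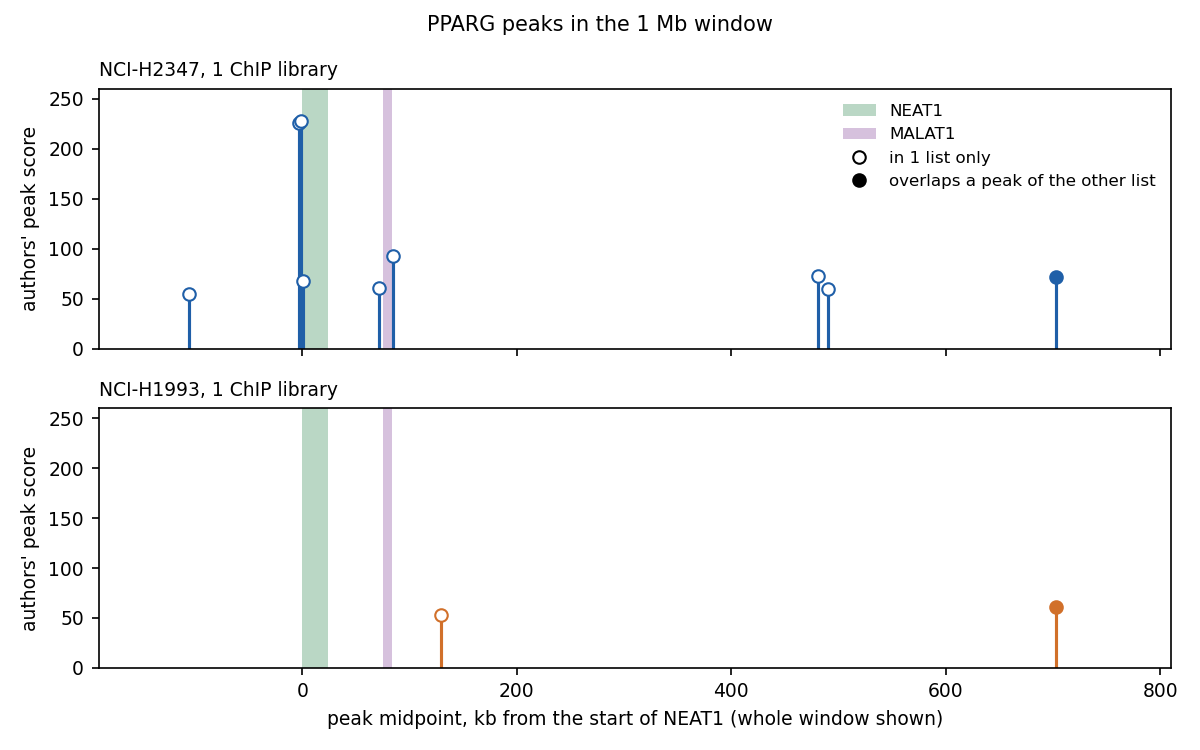
PPARG peaks of the 1 Mb window in NCI-H2347 (top) and NCI-H1993 (bottom), 1 library each. The horizontal axis is the distance of the peak midpoint from the start of NEAT1 in kb, the vertical axis is the authors' peak score, and shaded bands mark NEAT1 and MALAT1. The 2 peaks with scores of 226 and 228 stand just before NEAT1, and the filled circles at about the same position in both panels are the single shared site.

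The start of NEAT1 carried 3 NCI-H2347 peaks in a row. The first spanned chr11:65185930-65186912 (983 bp) and had a score of 225.86, which ranked 145 of 2225. It ended 3.09 kb before the NEAT1 interval. The second spanned chr11:65188290-65189335 (1046 bp), had a score of 228.27 and ranked 139, and it ended 0.665 kb before the interval. Because the start of the interval is rounded, the distance of the second peak from the start is known only to that precision. These were the strongest peaks of the window and ranked 9 and 8 by score among the 135 NCI-H2347 peaks of chromosome 11.

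The third peak, chr11:65189961-65190678 (718 bp), overlapped the start of the NEAT1 interval, with 679 of its bases inside. Its score of 67.29 ranked 1370, below the middle of the list. The highest scores thus stood upstream of the gene, and the score over its start was lower. The gaps between the 3 peaks were 1377 bp and 625 bp. Together they spanned 4.75 kb, of which 57.8% lay inside peaks. Beyond the first bases of NEAT1 no further peak of either list was called in the rest of its interval, and the next NCI-H2347 peak followed after 70.6 kb.

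Runs of 3 or more peaks with adjacent midpoints within 5 kb were uncommon in both lists. NCI-H2347 had 7 such runs, which together held 23 peaks or 1.03% of the list, and NCI-H1993 had 2. In the NEAT1 run 2 peaks had scores of at least 200, and it was the 1 run of the 7 with more than 1 such score. That score limit was set after the values had been seen, and the density of peaks chose the window. Nothing is therefore read from the presence of a run here or from its being the 1 with 2 such scores. Among the other NCI-H2347 runs, the highest second score was 124.01, in the run on chromosome 17 from 57914643 to 57924389, whose highest score was 310.29. No peak of the NEAT1 run overlapped an NCI-H1993 peak, which also held for 3 of the other 6 runs. Over the whole NCI-H2347 list only 21.7% of peaks overlapped one, so the lack of overlap in this run is not read as a result.

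MALAT1 had 1 peak on each side and none over its start. The peak before it, chr11:65261241-65261830 (590 bp), ended 3.17 kb ahead of the MALAT1 interval and had a score of 60.33, which ranked 1614 of 2225. It lay 47.2 kb beyond the end of the NEAT1 interval. The peak at the other end, chr11:65273767-65275698, covered the last 234 bases of the interval and then ran past it. At 1932 bp it was the widest peak of the window and the 18th widest of the whole list, while its score of 92.51 ranked 837.

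The overlap with the end of MALAT1 is within the rounding of the interval. With each interval narrowed by 0.5 kb on each side, an alternative added after the data had been seen, 0 peaks overlapped MALAT1. The peak at the start of NEAT1 still overlapped its interval (1 peak). Its 679 bases inside that interval are fewer than a whole kb, so this overlap also depends on how the interval was rounded. The wide peak is thus described as lying at the MALAT1 end, without a statement on which bases of the gene it covers. RefSeq lists TALAM1, an antisense RNA of the locus, and MASCRNA, a small RNA processed from the end of the MALAT1 transcript, next in gene order after MALAT1. A peak has no strand, so it cannot be assigned to a transcript of either strand. Of the 18 NCI-H2347 peaks at least that wide, 7 overlapped an NCI-H1993 peak, against 21.7% of the whole list. The MALAT1 peak was not among the 7, as most peaks of the list overlapped none, and nothing is read from that.

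**Figure D2:**
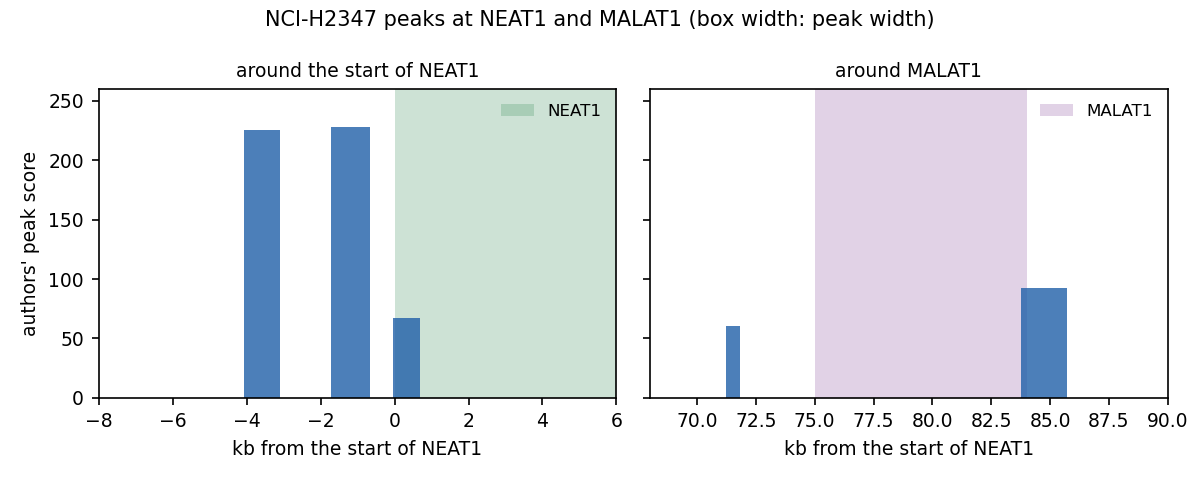
NCI-H2347 peaks around the start of NEAT1 (left) and around MALAT1 (right), with the distance from the start of NEAT1 in kb on the horizontal axis and the authors' peak score on the vertical axis. Each box is 1 peak drawn to its true width, and shaded areas are the gene intervals in whole kb. The 2 tall boxes end before NEAT1, a low box covers its start, and the widest box lies across the end of MALAT1.

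Taken by distance, 2 of the 9 NCI-H2347 peaks overlapped one of the RNA genes as given, and 5 of 9 did so when the intervals were widened by 5 kb on each side. The widened intervals made up 5.3% of the window. The window was chosen by its NCI-H2347 peaks, and the 2 genes were named with earlier results known. No enrichment at the genes is read from these shares. Widening by 20 kb added no further peak, again 5 of 9. NCI-H1993 had 0 of 2 peaks within 20 kb of either gene. Those wider intervals made up 11.3% of the window, so with 2 peaks the 0 is not read as a difference between the lines. Its nearest peak, chr11:65318821-65319693 (873 bp), lay 44.8 kb beyond the end of MALAT1 with a score of 52.84, which ranked 1231 of 1419. That peak had no counterpart in NCI-H2347, where the nearest peak was the wide one at the MALAT1 end, 44.5 kb away by midpoints.

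The other 4 NCI-H2347 peaks lay outside the stretch of the RNA genes. The first of the window, chr11:65084002-65084577 (576 bp), was 105 kb before NEAT1 and had a score of 54.75, which ranked 1896 and was the lowest of the 9. After the MALAT1 end no NCI-H2347 peak was called for 395 kb. Then came a pair, chr11:65670360-65671129 (770 bp) with a score of 72.80 and rank 1213, and chr11:65680229-65680913 (685 bp) with a score of 59.39 and rank 1649. The midpoints of the pair were 9.83 kb apart. The last peak, chr11:65892035-65892770 (736 bp), followed 211 kb later, with a score of 71.71 and rank 1244.

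That last peak was the shared site. The NCI-H1993 peak chr11:65892052-65892477 (426 bp) lay wholly inside it and covered 57.9% of its length. Its score of 61.40 ranked 916 of 1419, so the site stood below the middle of both lists. The midpoints were 138 bp apart, and the site was shared under each of the 3 other definitions tried. These were 50% reciprocal overlap, midpoints within 250 bp and a gap of up to 500 bp.

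Gene positions on hg19 were used for NEAT1 and MALAT1 only, so the 4 outer NCI-H2347 peaks and both NCI-H1993 peaks were not assigned to genes. All 38 genes of a list written for this neighbourhood were found in the RefSeq table of GRCh38, and 6 precede NEAT1 in gene order and 32 follow MALAT1. The neighbours before NEAT1 include SLC25A45, a mitochondrial carrier gene, and FRMD8, whose protein helps to stabilise iRhom and the sheddase ADAM17. LTBP3, whose protein binds latent TGF-beta, is among the genes that follow MALAT1. RELA, the NF-kappaB subunit p65, and FOSL1, a component of AP-1, come further along the same order. No statement is made on which of these genes, if any, the outer peaks adjoin.

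Sharing and score were then set beside the whole lists. Of the 9 NCI-H2347 peaks, 1 (11.1%, 95% Wilson interval 1.99% to 43.5%) overlapped an NCI-H1993 peak by at least 1 bp, against 21.7% of all NCI-H2347 peaks and 16.7% of the 126 peaks on the rest of chromosome 11. The interval covers counting error only and is wide with 9 peaks of 1 library, and the shares were not tested against each other. Of the 2 NCI-H1993 peaks, 1 was shared, against 34.2% of that list. Both peaks upstream of NEAT1 scored at least 200 and were unshared, and 54.6% of the 183 NCI-H2347 peaks at that score were shared. The other 83 of the 183 were unshared, as these 2 were. The nearest NCI-H1993 peak was 133 kb and 130 kb away from the 2 peaks. For the 83 unshared peaks at that score the median distance was 405 kb.

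Scores in the window reached from near the bottom of the NCI-H2347 list to its top 10%. Of the 9 peaks, 2 (22.2%, 6.32% to 54.7%) had a score of at least 100, against 33.0% of the list, and 3 were above the list median of 77.11. The median score of the 9 was 71.71, at the 44th percentile of the list (percentile 44.1, where 100 is the highest). The lowest score was 54.75 and the highest 228.27. Both NCI-H1993 peaks were below the median of their list, at percentiles 13.2 and 35.5. Read depth is unknown here, and scores were not compared between the lines.

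**Figure D3:**
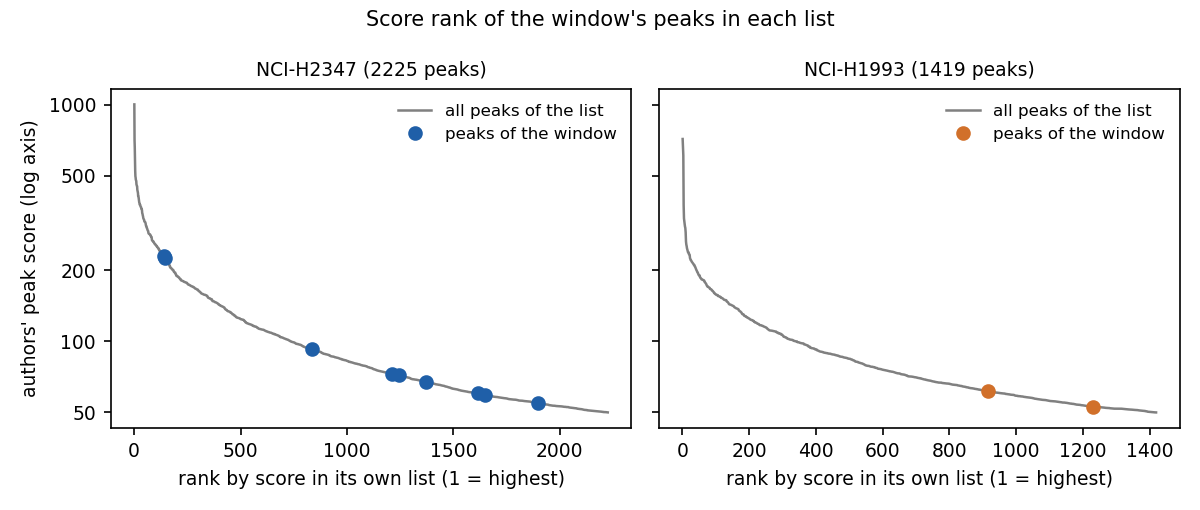
Authors' peak score (log axis) against rank in its own list for NCI-H2347 (left, 2225 peaks) and NCI-H1993 (right, 1419 peaks). The grey line is the whole list and the circles are the peaks of the window. In NCI-H2347, 2 overlapping circles lie at ranks 139 and 145, 1 at rank 837 and the other 6 at rank 1213 or lower on the curve, and both NCI-H1993 circles lie in the lower part of their curve.

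A second NCI-H2347 peak lay within 10 kb for 5 of the 9, against 14.1% of the list, and since the density of peaks chose the window nothing is read from that share. Widths ran from 576 to 1932 bp with a median of 736 bp, against 832 bp over the list. The 9 peaks covered 8.04 kb of the 1 Mb. At the edges of the window, the last NCI-H2347 peak before it (chr11:64350538-64351502) had a score of 112.15 and lay 649 kb outside, and the first after it (chr11:66188972-66189559) had a score of 67.97 and lay 189 kb outside. In NCI-H1993 the nearest peaks outside were 2391 kb before and 1891 kb after the window. Their scores were 76.01 and 104.13. The window held 2 NCI-H1993 peaks, and 334 of the 886 windows with any NCI-H1993 peak held at least 2. The median of those 886 was 1, and windows without a peak were not counted.

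The other windows of 1 Mb with at least 9 NCI-H2347 peaks held more peaks with high scores. There were 5 such windows in all, of 1129 with any NCI-H2347 peak. Peaks with a score of at least 100 numbered 2 of 9 here, and they made up 33.0% of the whole list. With 9 peaks the count of 2 is not read as a shortage. They numbered 5 of 12 and 7 of 12 in the windows of chromosome 17 from 48000001 and from 57000001, 4 of 10 on chromosome 12 from 52000001 and 4 of 9 on chromosome 1 from 201000001. Shared peaks numbered 1 of 9 here and, in the same order, 1 of 12, 5 of 12, 2 of 10 and 3 of 9, against 21.7% of the list. The NCI-H1993 peaks available for sharing numbered 2 here and 1, 6, 2 and 3 in the other windows. The shared counts are therefore limited by the number of NCI-H1993 peaks in each window. The highest score of 228.27 was also below the highest of each other window, which ran from 310.29 to 526.93. With 1 library and these few peaks the differences were not tested.

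The window held 6.67% of the 135 NCI-H2347 peaks of chromosome 11 and 3.77% of the 53 NCI-H1993 peaks there. Because the window was chosen by its NCI-H2347 peaks, no difference between the lines is read from these 2 shares. Chromosome 11 carried 6.07% of the NCI-H2347 list and 3.74% of the NCI-H1993 list, a difference of 2.33 percentage points. Without the window the shares were 5.69% and 3.60%, and the difference was 2.09 points. The difference over the chromosome thus kept its direction when the 11 peaks were left out, and it was not tested.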

How the data were processed

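Peak lists of 2 ChIP libraries, 1 per cell line, were used. Per the submitters' processing notes, MACS 1.4.2 and build hg19 were used. The aligner, read filters, calling threshold and role of the inputs are not given in the sources used here. Each peak's deposited score comes from the authors' caller and was used only within its list. Every deposited score is above 50. Starts were converted to 1-based positions. The window and the gene intervals came from the definition of the region. Sharing meant an overlap of 1 bp or more. No test was made, because each line has 1 library and the window was chosen on these lists. Members and gene list were chosen with earlier results of these data known. Every peak of the window is named. Wilson intervals cover counting error only. Depth is unknown. RefSeq tables on GRCh38.p14 gave gene names and order only. The planned sequence features needed an hg19 genome, which was not used here. The overlap code was tested on simulated lists. Alternatives were other definitions of sharing, a score of at least 100, the longer list cut to the shorter, a moved window and wider or narrower gene intervals. Python 3.11.15, numpy 2.4.6, pandas 2.3.3, scipy 1.17.1 and matplotlib 3.10.9 were used.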

Additional observations from a re-analysis of the deposited data

How the results depend on the processing

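Sharing of 1 NCI-H2347 peak was the same under all 3 other definitions of sharing. With only peaks scoring 100 or more kept in each list, 2 NCI-H2347 and 0 NCI-H1993 peaks were left in the window, 0 were shared, 0 overlapped the NEAT1 interval and 0 the MALAT1 interval; the 2 left were the peaks upstream of NEAT1, at a median percentile of 80.8 of the 734 peaks kept. With the 1419 highest-scoring NCI-H2347 peaks, as many as NCI-H1993 has, 6 peaks were left, and both gene overlaps and the shared site were among them; their median percentile was 27.8 of the shortened list, against 44.1 of the full one. Moving the window by 500 kb to lower positions gave 6 NCI-H2347 peaks, 1 NCI-H1993 peak and 0 shared. Moving it to higher positions gave 4, 1 and 1. The 4 include chr11:66188972-66189559, which lies outside the original window. Widening the NEAT1 interval by 5 or 20 kb gave 3 peaks, and the MALAT1 interval 2. Narrowing by 0.5 kb, added after the data had been seen, gave 1 for NEAT1 and 0 for MALAT1. No paired analysis was possible because each line has a single ChIP library. Read depth is not given by these lists.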
